A study of Mus musculus with 18 samples.

Results

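The genes described here are 10 genes of dendritic cell biology, chosen by name: Flt3, Zbtb46, Xcr1, Clec9a, Batf3, Irf8, Ccr7, Fscn1, Cd209a and Siglech. They are 10 of the 22792 genes in the count tables, and all 10 were among the 15282 genes with enough reads to be tested. Their reads were counted in 18 whole tumors grown from 4T1, a triple-negative mammary carcinoma cell line of Balb/c origin. Each injection placed 300000 4T1 cells in the mammary fat pad of female Balb/c mice aged 8 weeks, treatment ran from day 7, and tumors were taken at day 21. Vehicle tumors (n = 5, replicates 1 to 5) received neither drug. PI3Ki tumors (n = 4, replicates 1, 2, 3 and 5) received CLR457, a pan-PI3K inhibitor, and SHP2i tumors (n = 4, replicates 2 to 5) received SHP099, an allosteric inhibitor of the phosphatase SHP2. Combo tumors (n = 5, replicates 1 to 5) received both agents. The host mice were immunocompetent and the 4T1 line was shared by all groups. The authors give 4 to 5 animals per group for the RNA sequencing, the same as the tumors per group. The sample labels do not name the mouse of each tumor. P-values measure the spread between these tumors.

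Dendritic cells take up material from dying cells, carry it to lymph nodes and present it to T cells. Conventional type 1 cells take up dead cell material through the receptor CLEC9A, respond to the chemokine XCL1 through XCR1, and need the transcription factors IRF8 and BATF3 to form. Conventional type 2 cells prime CD4 T cells, and CD209A is found on monocyte-derived and some type 2 cells. Mature cells switch on the lymph node homing receptor CCR7 and the actin bundling protein fascin. Plasmacytoid cells, marked in the mouse by SIGLECH, make type I interferon. FLT3 is the growth factor receptor that drives the whole lineage from bone marrow progenitors.

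Tumors held 21161111 to 26620104 counted reads each. Carcinoma markers, 7 epithelial genes, summed to 685 to 1342 CPM (counts scaled to a common library size) over all 18 tumors, and leukocyte markers summed to 350 to 2718 CPM. Some tumors stood apart. The summed lymph node stroma and high endothelial venule markers (Glycam1, Chst4, Cxcl13 and Madcam1) ran from 7.34 to 89.2 CPM in Vehicle, from 1.20 to 85.8 in PI3Ki and from 1.34 to 3.08 in SHP2i. In Combo they were 1.01, 3.67, 16.8, 138.4 and 1.51 CPM in replicates 1 to 5. The B and plasma cell markers of Combo replicates 3 and 4 summed to 620.6 and 254.7 CPM, against 38.5 to 117.5 CPM in Vehicle. PI3Ki tumors held 802 to 1930 CPM of skeletal muscle markers and Vehicle tumors 4.23 to 101. PI3Ki replicate 2 held the most neutrophil marker reads, at 2722 CPM. In RNA of a whole tumor, fewer dendritic cells and less RNA of a gene per cell cannot be told apart.

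The stretches before the listed starts are shown for the receptor and plasmacytoid genes that separated the groups most and for Zbtb46, which moved the other way. RefSeq promoters (build GRCm38.p6) were present in the tables for 9 of the 10 members, with 10 sequences in all. The 250 bases before each start were searched on both strands for AP-1 (TGANTCA), the ETS-IRF composite element, the interferon-stimulated response element (ISRE) and the kappaB site. ISRE and composite letters can overlap each other. Capitals mark a match. The windows were chr6:129408612-129408861 (+) for Clec9a, chr9:123862030-123862279 (-) for Xcr1, chr7:55767934-55768183 (+) for Siglech and chr2:181424389-181424638 (-) for Zbtb46, whose listed start lies inside the gene. The Clec9a window lies within an annotated exon of the neighbouring Clec1b. The end of the Siglech window lies inside the gene interval given below, which starts at chr7:55768154.
Clec9a: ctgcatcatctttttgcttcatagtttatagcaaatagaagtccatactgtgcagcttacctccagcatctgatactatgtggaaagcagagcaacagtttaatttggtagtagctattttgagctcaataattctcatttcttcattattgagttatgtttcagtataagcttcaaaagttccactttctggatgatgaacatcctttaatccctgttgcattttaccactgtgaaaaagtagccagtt
Xcr1: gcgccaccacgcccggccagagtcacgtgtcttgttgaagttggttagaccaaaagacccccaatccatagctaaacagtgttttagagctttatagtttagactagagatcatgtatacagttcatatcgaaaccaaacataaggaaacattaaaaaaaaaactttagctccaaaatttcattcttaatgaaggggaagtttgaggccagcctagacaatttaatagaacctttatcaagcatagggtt
Siglech: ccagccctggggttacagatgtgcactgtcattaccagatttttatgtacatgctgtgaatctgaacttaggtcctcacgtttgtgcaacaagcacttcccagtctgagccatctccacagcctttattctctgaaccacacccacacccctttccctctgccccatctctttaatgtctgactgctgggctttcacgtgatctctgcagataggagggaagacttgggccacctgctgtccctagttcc
Zbtb46: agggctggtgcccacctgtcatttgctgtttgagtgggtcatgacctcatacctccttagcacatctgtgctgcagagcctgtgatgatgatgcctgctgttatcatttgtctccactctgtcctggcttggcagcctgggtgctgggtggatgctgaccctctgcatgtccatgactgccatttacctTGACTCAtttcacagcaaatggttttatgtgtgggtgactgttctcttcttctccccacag

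Among the 10 sequences, 1 match was found. It was an AP-1 match, TGACTCA, 61 bases before the listed start of Zbtb46. The whole of that window lies inside the gene (chr2:181371009-181493262, minus strand). Whether the stretch acts as a promoter was not tested, so the match is not shown to be a promoter site. Of 32851 promoters in the table, 6.75% held an AP-1 match, 2.3% an ETS-IRF composite, 2.98% an ISRE and 0.356% a kappaB match in the same 250 bases. The 3 other windows shown held none of these letters, which says nothing of the factors themselves.

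Per kilobase of exon, and so comparable between genes, the levels in Vehicle ran over a wide range. Fscn1 stood at 163 ± 9.76 CPM per kb (SD, n = 5), Irf8 at 16.3 ± 2.54, Ccr7 at 7.77 ± 1.75 and Batf3 at 4.86 ± 0.904. Cd209a (2.47 ± 0.672) and Clec9a (2.45 ± 0.754) did not differ beyond their spread. Siglech (1.26 ± 0.574), Zbtb46 (1.24 ± 0.0995) and Xcr1 (1.07 ± 0.482) also lay within each other's spread. Flt3 was the lowest at 0.692 ± 0.117 CPM per kb. Fascin is made by many carcinoma cells as well as by mature dendritic cells, and Irf8 by macrophages and B cells.

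**Figure D1:**
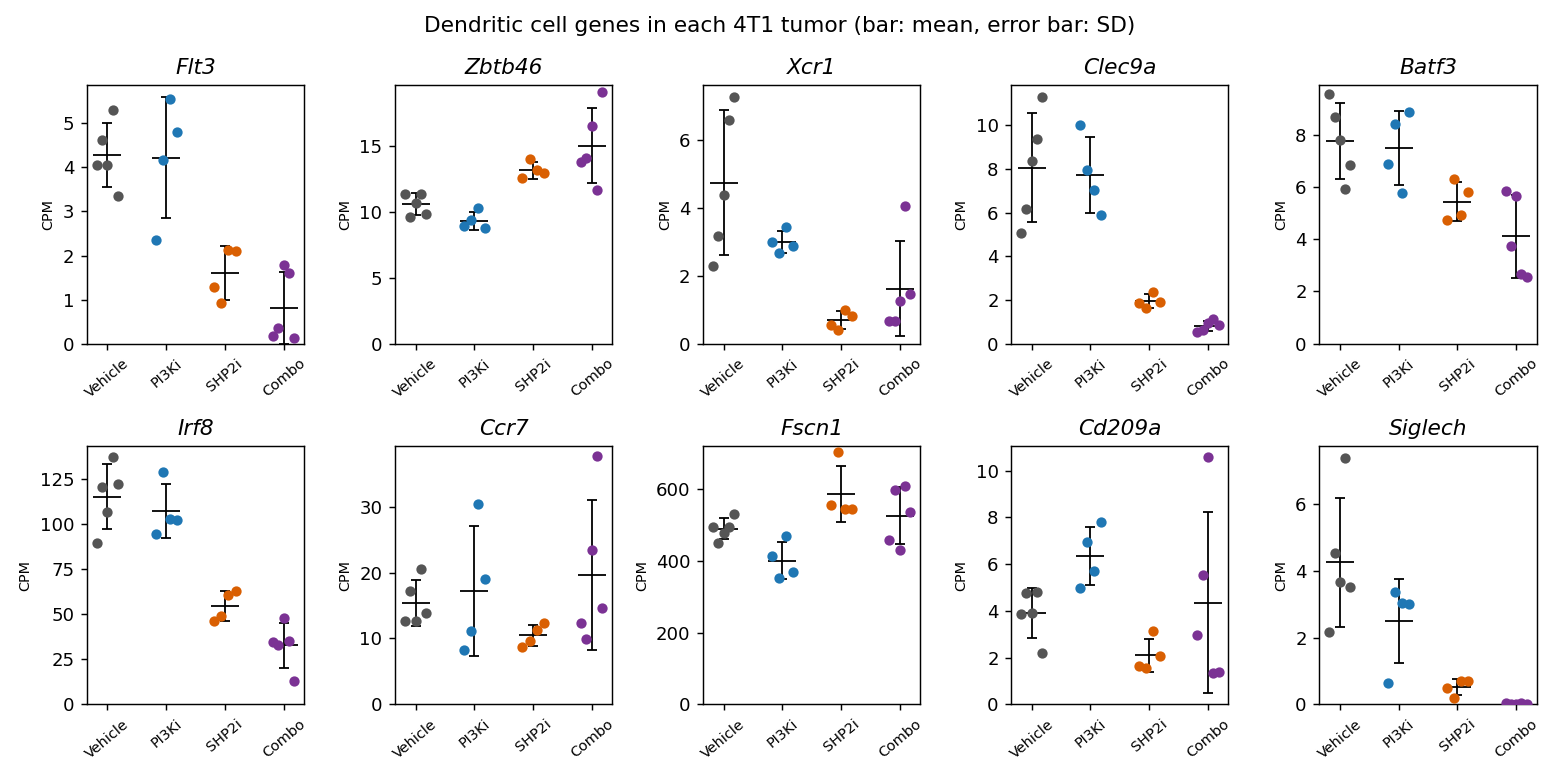
CPM of the 10 members in each tumor, 1 panel per gene with a linear axis from 0, for Vehicle (n = 5), PI3Ki (n = 4), SHP2i (n = 4) and Combo (n = 5); bars are means and error bars SD. Clec9a lies between 5.08 and 11.3 CPM in Vehicle, between 1.64 and 2.37 in SHP2i and between 0.525 and 1.12 in Combo, while Zbtb46 has its highest mean in Combo.

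The first question was what SHP2 inhibition alone did to these genes. Of the 10 members, 4 fell against Vehicle and 0 rose, beside 6.54% of all tested genes called lower and 5.05% called higher. Those that fell were both type 1 cell surface receptors, Clec9a and Xcr1, the transcription factor Irf8 and the plasmacytoid gene Siglech. Their SHP2i tumors all lay below every Vehicle tumor. The same held for Flt3 and Ccr7, and Zbtb46 and Fscn1 lay above every Vehicle tumor, all without a call. The share of all tested genes without overlap was not counted, so lack of overlap is a description only. The median log2 fold change of the 10 members was -0.99, beside 0.02 for all genes tested.

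Clec9a (gene on chr6:129408862-129424764, GRCm38.p6) encodes the receptor for dead cell actin on type 1 cells. It stood at 5.08, 6.18, 8.37, 9.35 and 11.3 CPM in Vehicle and at 1.85, 1.64, 2.37 and 1.92 CPM in SHP2i. No SHP2i tumor came near the lowest Vehicle tumor. It fell by 2.04 ± 0.26 (SE) on the log2 scale, with an adjusted p of 8.78e-05 in edgeR's quasi-likelihood test. The call remained with B cell markers (-2.02), lymph node markers (-1.87) or leukocyte markers (-1.62, adjusted p 0.0316 in edgeR) as a covariate. Each of these marker sums was lower in every SHP2i tumor than in any Vehicle tumor. Covariate fits of SHP2i against Vehicle therefore cannot separate cell content from treatment, for this or any other member. Reads in exons that Clec9a shares with Clec1b on the same strand could be assigned to either gene.

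Xcr1 (chr9:123852315-123862029, minus strand), the receptor for XCL1 from natural killer and T cells, was at 2.31, 3.17, 4.40, 6.60 and 7.28 CPM in Vehicle. It was at 0.563, 0.411, 1.00 and 0.806 CPM in SHP2i. The groups did not overlap, though Vehicle tumors alone spread over a wide range. Xcr1 fell by 2.76 ± 0.51 on the log2 scale (SE; edgeR adjusted p 0.00227). With lymph node markers as a covariate it was -1.82 (edgeR adjusted p 0.0619), and with leukocyte markers -1.86 (edgeR adjusted p 0.141).

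Siglech (chr7:55768154-55779448) stood at 2.17, 4.54, 3.66, 7.38 and 3.53 CPM in Vehicle and at 0.483, 0.183, 0.708 and 0.716 CPM in SHP2i. These values rest on 508 reads in all Vehicle tumors and 49 in all SHP2i tumors. The log2 fold change was -3.01 ± 0.51 (SE; edgeR adjusted p 0.00117). The call ended with B cell markers (-2.15, adjusted p 0.0593), lymph node markers (-1.41, adjusted p 0.246) or leukocyte markers (-0.63, adjusted p 0.778) in edgeR. The part of these cell types in the result was not tested beyond the covariate fits, which cannot separate it from treatment.

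Irf8 (chr8:120736358-120756694) encodes a transcription factor needed for type 1 and plasmacytoid cells and also used by monocytes and B cells. Vehicle tumors held 89.4, 120.3, 106.7, 137.1 and 122.0 CPM, and SHP2i tumors 46.4, 48.8, 60.6 and 63.0 CPM. The log2 fold change was -1.07 ± 0.24 (SE; edgeR adjusted p 0.00847). The call ended with B cell markers (-0.84, adjusted p 0.0865), lymph node markers (-0.73, adjusted p 0.21) and leukocyte markers (-0.19, adjusted p 0.659) in edgeR.

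The other 6 members did not pass the test against Vehicle in SHP2i. Flt3 had 4.06, 4.62, 4.06, 5.29 and 3.36 CPM in Vehicle and 1.29, 0.912, 2.12 and 2.10 in SHP2i, all below Vehicle, with a log2 fold change of -1.41 (edgeR adjusted p 0.0918). Zbtb46, a repressor specific to conventional dendritic cells among leukocytes that endothelial cells also use, had 9.62 to 11.4 CPM in Vehicle and 12.6 to 14.1 in SHP2i, with a log2 fold change of 0.32 (edgeR adjusted p 0.0965). Fscn1 lay higher in all SHP2i tumors (544 to 703 CPM against 450 to 531) and Ccr7 lower in all (8.65 to 12.4 against 12.6 to 20.6), with log2 fold changes of 0.26 and -0.55. Batf3 (4.75 to 6.30 CPM, -0.51) and Cd209a (1.55 to 3.12 CPM, -0.90) overlapped with Vehicle. With the SHP2i and Vehicle tumors fitted alone, 9 members were called, and with limma voom 7. The share of all genes called in those fits was not counted, so these counts have no background beside them.

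The summed leukocyte markers were 1592 to 2512 CPM in Vehicle and 677 to 1150 in SHP2i, without overlap. Their part in these results was not tested beyond the covariate fits, which cannot separate it from treatment. Set against that sum, per 1000 CPM of leukocyte markers, Clec9a was at 3.74 ± 0.81 CPM in Vehicle (SD, n = 5) and 2.28 ± 0.35 in SHP2i (n = 4). Xcr1 was at 2.17 ± 0.76 and 0.777 ± 0.126, and Siglech at 1.94 ± 0.62 and 0.579 ± 0.217. For these 3 genes every SHP2i tumor lay below every Vehicle tumor on this scale. Irf8 was at 54.1 ± 2.25 and 63.8 ± 7.92 and overlapped. For Ccr7, Fscn1 and Zbtb46 every SHP2i tumor lay above every Vehicle tumor. The marker sum itself was lower in every SHP2i tumor, so a gene with an unchanged level also lies higher on this scale. How many of all genes do so was not counted.

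**Figure D2:**
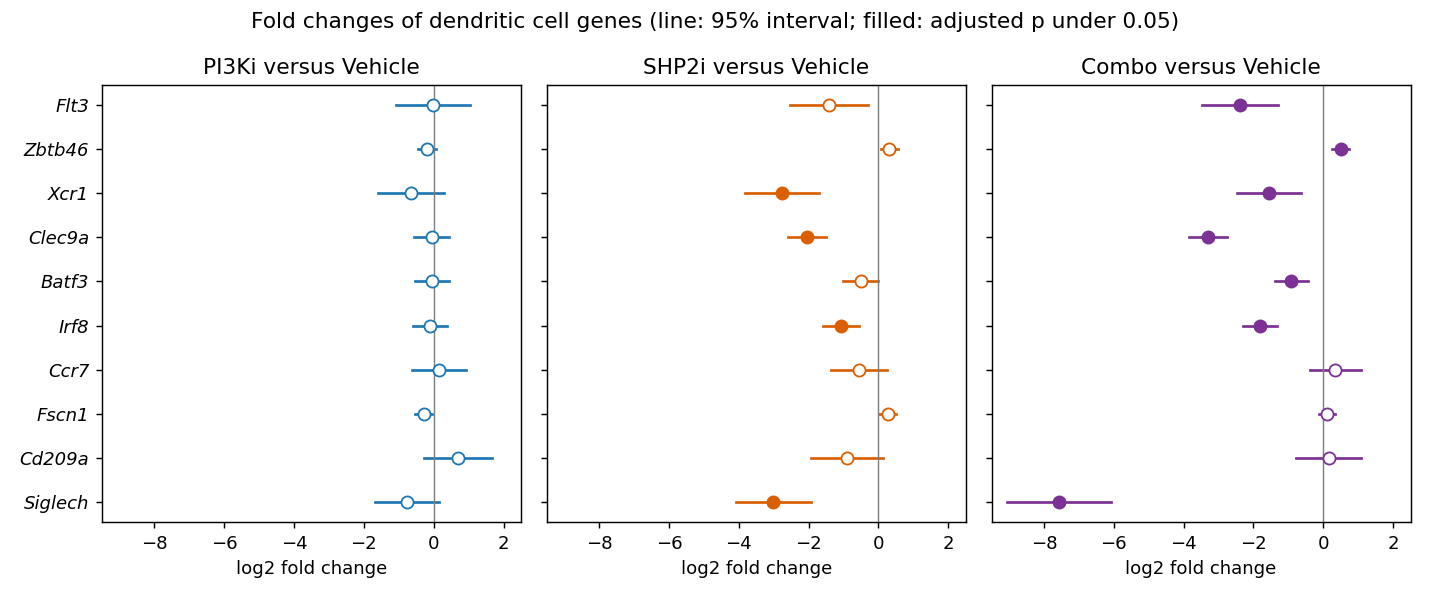
Log2 fold change of each member against Vehicle in PI3Ki, SHP2i and Combo; lines are 95% intervals, and filled points have an adjusted p under 0.05. Clec9a, Xcr1, Irf8 and Siglech are filled in SHP2i and Combo, and 0 members are filled in PI3Ki; the Siglech point in Combo is a fitted value on 2 reads.

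Inhibition of both targets was compared with the same 5 Vehicle tumors next. In Combo 6 members fell, Flt3, Xcr1, Clec9a, Batf3, Irf8 and Siglech, and 1 rose, Zbtb46. Over all tested genes 19.7% were called lower and 23.9% higher. The median log2 fold change of the members was -1.23, beside 0.02 for all genes tested. The mature cell genes Ccr7 and Fscn1 and the type 2 and monocyte-derived gene Cd209a did not pass the test.

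Siglech was the member with the fewest reads in Combo: 1, 0, 0, 1 and 0 reads in replicates 1 to 5. That is 2 reads in 5 tumors, against 508 in the 5 Vehicle tumors. The pooled ratio was 0.401% of Vehicle, with an exact binomial 95% interval of 0.0484% to 1.45% that covers counting error only. edgeR gave an adjusted p of 6.93e-07, and its fitted fold change depends on the prior count. Combo replicates 3 and 4, the tumors of the group with the most lymph node and B cell marker reads, had 0 and 1 reads.

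Clec9a was at 0.525, 0.626, 0.938, 1.12 and 0.841 CPM in Combo, all below Vehicle and below SHP2i. The log2 fold change against Vehicle was -3.30 ± 0.25 (SE; edgeR adjusted p 1.39e-07). Under the covariates it was between -2.78 and -3.29, and without Combo replicates 3 and 4 it was -3.61. Per 1000 CPM of leukocyte markers it was at 1.27 ± 0.66 CPM in Combo (SD, n = 5), with every tumor below the Vehicle tumors, and every Combo tumor was also below for Siglech. On this scale Xcr1 was at 2.41 ± 1.82 in Combo and 2.17 ± 0.76 in Vehicle, Flt3 at 0.907 ± 0.699 and 2.04 ± 0.39, and Irf8 at 46.1 ± 12.5 and 54.1 ± 2.25, and all 3 overlapped. Batf3 and Cd209a overlapped too, while for Ccr7, Fscn1 and Zbtb46 every Combo tumor lay above every Vehicle tumor. The marker sum was lower in every Combo tumor than in any Vehicle tumor, so a gene with an unchanged level also lies higher here.

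Flt3 (chr5:147330741-147400489, minus strand) stood at 0.175, 0.358, 1.80, 1.60 and 0.133 CPM in Combo, with replicates 3 and 4 the highest. All of them lay below Vehicle (3.36 to 5.29 CPM), and the log2 fold change was -2.38 ± 0.52 (SE; edgeR adjusted p 0.0015). It was -4.26 without Combo replicates 3 and 4 and -0.17 with leukocyte markers as a covariate (edgeR adjusted p 0.857). Irf8 was at 34.7, 32.7, 47.8, 35.3 and 13.0 CPM, with a log2 fold change of -1.81 ± 0.23 (SE; edgeR adjusted p 1.34e-05).

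Batf3 (chr1:191098414-191108943), the partner of Irf8 in type 1 cells, had 9.56, 8.68, 7.80, 5.91 and 6.85 CPM in Vehicle and 5.86, 3.76, 5.67, 2.68 and 2.57 CPM in Combo. The highest Combo tumor was just below the lowest Vehicle tumor, and the log2 fold change was -0.92 ± 0.23 (SE; edgeR adjusted p 0.00372). Xcr1 was at 0.657, 0.671, 1.26, 4.06 and 1.46 CPM in Combo. Replicate 4 overlapped Vehicle (2.31 to 7.28 CPM), and the log2 fold change was -1.55 ± 0.43 (SE; edgeR adjusted p 0.00846). Without Combo replicates 3 and 4 it was -2.37 (edgeR adjusted p 0.000395).

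Zbtb46 (chr2:181371009-181493262, minus strand) moved the other way. Combo tumors held 13.8, 14.1, 16.5, 11.7 and 19.1 CPM and Vehicle tumors 11.4, 9.62, 10.7, 11.4 and 9.81. All Combo tumors lay above all Vehicle tumors, by a small margin in replicate 4. Zbtb46 rose by 0.51 ± 0.12 on the log2 scale (SE; edgeR adjusted p 0.00198). Endothelial cells also make this gene. Of 9 endothelial markers, 9 fell in Combo and 0 in SHP2i, with summed levels of 511 to 621 CPM in Vehicle and 204 to 266 CPM in Combo, and their part in the Zbtb46 result was not tested.

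With leukocyte markers as a covariate the calls on Flt3, Zbtb46 (0.31), Xcr1 (-0.43), Batf3 (-0.78) and Irf8 (-0.75) ended in Combo, and those on Clec9a and Siglech remained. Those adjusted p-values were 0.857, 0.298, 0.724, 0.208 and 0.0507 in edgeR. Leukocyte markers summed to 350 to 1186 CPM in Combo and 1592 to 2512 CPM in Vehicle, 2 ranges that do not overlap. This covariate fit therefore cannot separate leukocyte content from treatment, whether a call ended or remained.

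Ccr7 (chr11:99144199-99155077, minus strand) had 12.6, 17.1, 12.6, 20.6 and 13.8 CPM in Vehicle and 12.3, 9.88, 23.4, 37.7 and 14.7 CPM in Combo. Its highest levels in Combo were those of replicates 3 and 4, which also held 246 and 333 CPM of summed T cell markers against 77.5 to 82.0 CPM in the other Combo tumors. The log2 fold change was 0.35 (edgeR adjusted p 0.438), and -0.34 without those replicates. With B cell or lymph node markers as a covariate it was 0.70 and 0.78, past the threshold (edgeR adjusted p 0.0117 and 0.00972). Cd209a (chr8:3743395-3748984, minus strand) had 3.88, 4.77, 3.92, 4.80 and 2.18 CPM in Vehicle and 2.98, 5.54, 10.6, 1.34 and 1.37 in Combo, a range that held the whole of Vehicle. Fscn1 (chr5:142960355-142973189) had 430 to 608 CPM in Combo, with a log2 fold change of 0.10 (95% interval -0.13 to 0.34).

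**Figure D3:**
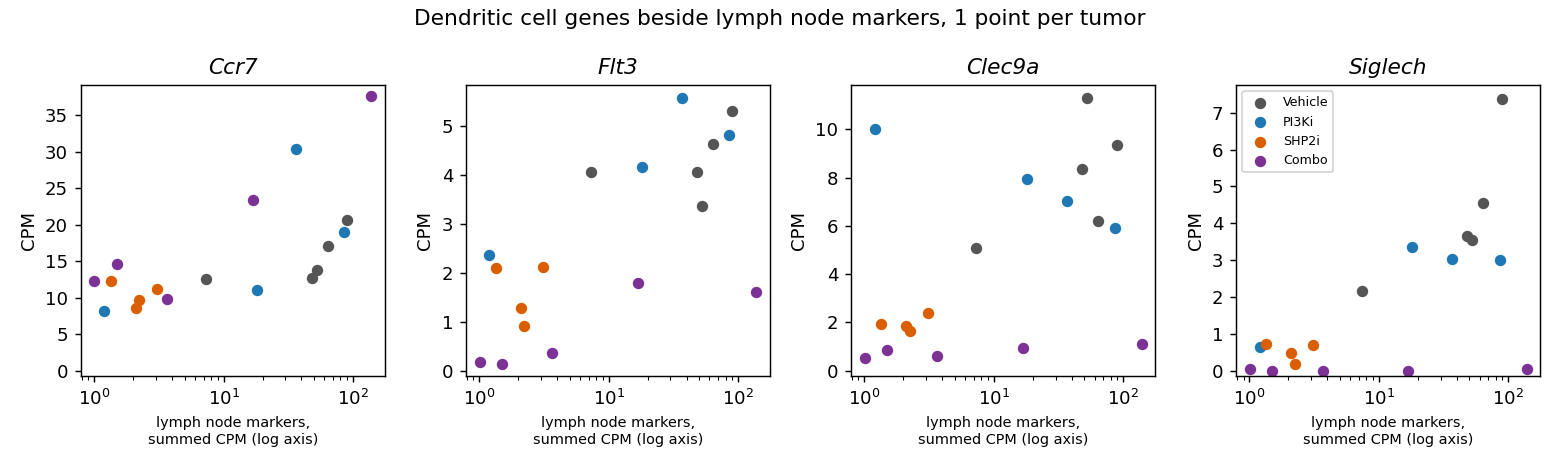
CPM of Ccr7, Flt3, Clec9a and Siglech (linear axes) against the summed CPM of 4 lymph node markers (log axis), 1 point per tumor coloured by group. The Combo tumors with 16.8 and 138.4 CPM of the markers have 23.4 and 37.7 CPM of Ccr7, and Siglech stays at 0 to 0.0438 CPM in all Combo tumors, including the one with 138.4 CPM of the markers.

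PI3K inhibition alone was the third comparison with the Vehicle tumors. None of the 10 members passed the test in PI3Ki against Vehicle in edgeR, beside 2.69% of all genes called higher and 2.42% called lower. At an unadjusted p under 0.05, 1 member (Fscn1, -0.29) and 2982 of all 15282 tested genes would be counted, and limma voom called Fscn1 lower. Clec9a was at 10.02, 7.94, 7.03 and 5.91 CPM, within the Vehicle range, with a log2 fold change of -0.06 (95% interval -0.56 to 0.44). Siglech was at 0.639, 3.36, 3.03 and 3.02 CPM, and PI3Ki replicate 1, the lowest, had 1.20 CPM of lymph node markers. Cd209a was at 4.99, 6.93, 5.71 and 7.78 CPM, all above Vehicle (2.18 to 4.80), with a log2 fold change of 0.70 (95% interval -0.28 to 1.67). All 9 skeletal muscle markers were higher in PI3Ki (list median 5.76 in log2), and their part in these values was not tested. The Irf8 levels of 94.4 to 129.0 CPM and the Batf3 levels of 5.79 to 8.89 CPM lay close to those of Vehicle. Zbtb46 was at 8.76 to 10.3, Fscn1 at 351 to 470 and Ccr7 at 8.23 to 30.3 CPM, the last with the highest value in replicate 3. Wide intervals remained for Flt3 (-1.08 to 1.04) and Xcr1 (-1.61 to 0.28).

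The drug groups were then set against each other, with the same 18 tumors behind each fit. Of the 10 members, 3 fell in Combo against SHP2i and 0 rose, beside 10.3% of all genes lower and 11.8% higher: Clec9a (-1.26 ± 0.26, adjusted p 0.00318), Irf8 (-0.74 ± 0.24, adjusted p 0.0332) and Siglech (adjusted p 0.00121), all in edgeR. Clec9a and Siglech did not overlap between these groups and Irf8 did. Siglech had 2 reads in Combo against 49 in SHP2i, a pooled ratio of 3.29% (95% interval 0.388% to 12.5%, counting error only). The Irf8 call was lost in 6 of 18 fits that left out 1 tumor, with adjusted p-values of 0.05 to 0.0887 in edgeR: SHP2i replicates 3, 4 and 5 and Combo replicates 1, 2 and 4. Xcr1 was 1.22 higher in Combo on the log2 scale without passing (edgeR adjusted p 0.0881), and it passed without Combo replicate 1 or 2 (1.41). Ccr7 passed without Combo replicate 2 (1.07, edgeR adjusted p 0.0476).

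Against PI3Ki, Combo had 5 members lower (Flt3, Clec9a, Batf3, Irf8 and Siglech) and 2 higher (Zbtb46, 0.69 and Fscn1, 0.39), beside 17.8% of all genes lower and 19.9% higher. The Fscn1 call was lost without PI3Ki replicate 2 (0.30) or PI3Ki replicate 5 (0.34). Without Combo replicate 4, Xcr1 was also called (-1.57, edgeR adjusted p 0.0047), and without Combo replicate 3 so was Cd209a (-1.18, edgeR adjusted p 0.0242). SHP2i against PI3Ki had 5 members lower (Xcr1, Clec9a, Irf8, Cd209a and Siglech) and 2 higher (Zbtb46, 0.50 and Fscn1, 0.55), beside 12.8% lower and 11.6% higher. Cd209a was 1.65, 1.55, 3.12 and 2.06 CPM in SHP2i, all below PI3Ki, but its call (-1.60, edgeR adjusted p 0.0304) was lost in 5 fits without 1 tumor: PI3Ki replicate 2 or 5 or SHP2i replicate 2, 3 or 5. Flt3 (-1.39) passed without Combo replicate 3 or 5, with edgeR adjusted p-values of 0.0498 and 0.0415.

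Whether both drugs together differed from the sum of their single effects was tested as an interaction on the log2 scale. Siglech passed (-3.79 ± 0.97, edgeR adjusted p 0.0483) and the other members did not, beside 1.61% of all genes lower and 0.864% higher. The Siglech call was lost in 14 of 18 fits that left out 1 tumor (adjusted p-values of 0.0624 to 0.104 in edgeR). It remained without Vehicle replicate 4, PI3Ki replicate 1, SHP2i replicate 3 or Combo replicate 1. The interaction of Clec9a was -1.20 ± 0.35 (edgeR adjusted p 0.0826).

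The genes around these members were counted from lists of dendritic cell genes, written with earlier results of these data known. Over all tested genes 6.54% were called lower and 5.05% higher in SHP2i. In Combo these shares were 19.7% and 23.9%, and a list count near them is not a result about the list. In the type 1 list, 7 of 13 genes fell in SHP2i and 11 of 13 in Combo, with 0 rising in either. Cadm1, an adhesion molecule in the type 1 list, had means of 55.5 CPM in Vehicle, 24.97 in PI3Ki, 7.00 in SHP2i and 4.24 in Combo. Its log2 fold changes were -1.15, -2.99 and -3.71, all called in edgeR (adjusted p 0.0156, 9.61e-06 and 9.29e-08), and it was the only type 1 list gene called in PI3Ki. The members Clec9a (-0.06) and Xcr1 (-0.66) were not called in PI3Ki. Which cells made Cadm1 in these tumors was not tested. Ppt1, a lysosomal thioesterase, fell by 0.83 in SHP2i and by 0.62 in Combo on the log2 scale, and Snx22 by 0.34 and 0.26. Ppt1 overlaps Cap1 and Snx22 overlaps Ppib on the opposite strand. With the strand setting of the counting unknown, reads of those neighbours could be included. Tlr11, a sensor of microbial profilin, had 210 reads in Vehicle, 37 in SHP2i and 3 in Combo. Its pooled Combo ratio was 1.45% of Vehicle (95% interval 0.297% to 4.31%, counting error only).

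Lists of the other dendritic cell states were mixed. In the type 2 list, 2 of 11 fell and 1 rose in SHP2i, and 5 fell and 3 rose in Combo. Over all genes 19.7% fell and 23.9% rose in Combo, so the 3 rises lay near that share. Clec4a2 fell by 5.05 on the log2 scale in Combo, Clec4a4 by 2.37 and Esam, which endothelial cells also make, by 1.19, while Notch2, the receptor that shapes type 2 cells, rose by 0.79. Of the genes shared by conventional cells, 2 of 8 fell in SHP2i and 6 of 8 in Combo. Itgax, the integrin CD11c, fell from 85.3 ± 26.3 CPM in Vehicle to 8.20 ± 6.7 in Combo (SD, n = 5 each), with a log2 fold change of -3.37 (edgeR adjusted p 3.48e-05).

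Mature migratory genes other than Ccr7 and Fscn1 fell in 5 of 18 cases in SHP2i and 7 of 18 in Combo, with 0 rising. The median log2 fold change of this list was -0.57 in SHP2i and -0.08 in Combo. Over all genes 6.54% fell in SHP2i and 19.7% in Combo. The costimulatory genes Cd40 and Cd86 fell by 1.15 and 1.33 in SHP2i and by 1.35 and 2.29 in Combo on the log2 scale. Macrophages and B cells also make both. Plasmacytoid genes fell in 5 of 14 cases in SHP2i and 7 of 14 in Combo, with 1 rise, Tcf4 (0.73). Tlr9, the sensor of CpG DNA, fell by 2.49 and 3.37, and Lair1 by 1.84 and 2.37. Klk1 had 387 reads in Vehicle, 58 in SHP2i and 0 in Combo, at least 127-fold lower than Vehicle with a floor of 3 reads over the group. The median of this list in Combo was -1.04, also with Klk1 at that bound. Ccr9, the gene of the list with the most reads (345 CPM in Vehicle), did not pass the test in any group. Ccr9 overlaps Lztfl1 and Slc6a20a on the opposite strand, and the strand setting of the counting is not known. Its reads could therefore come from those genes.

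Ligands and receptors of dendritic cells were counted apart. Of 13 growth factors and chemokines tested, 1 fell and 1 rose in SHP2i, and 7 fell and 2 rose in Combo. Over all genes 6.54% fell and 5.05% rose in SHP2i, and 19.7% fell and 23.9% rose in Combo. Xcl1, the ligand of XCR1, had 103 reads in Vehicle, 24 in SHP2i and 1 in Combo. Its pooled Combo ratio was 0.988% of Vehicle (95% interval 0.0248% to 5.63%, counting error only). Natural killer cells make Xcl1, and 2 of 7 of their markers fell in SHP2i and 6 of 7 in Combo. Cxcl10, an interferon-induced chemokine, fell by 2.80 on the log2 scale in Combo, and Kitl rose by 0.71 in SHP2i and 1.31 in Combo. Of 10 receptors, 7 fell in SHP2i and 7 in Combo, with 0 rising. Ccr2, the monocyte recruiting receptor, fell from 140 CPM in Vehicle to 26.2 in SHP2i and 8.73 in Combo, and Csf1r from 305 to 120 and 100.1 CPM. Cx3cr1 was lower in all 3 drug groups, by 0.67 in PI3Ki, 0.99 in SHP2i and 0.97 in Combo (log2 scale). Its locus overlaps Csrnp1, Gorasp1 and Xirp1 on the same strand, so reads could be assigned to either. Flt3l, Ccl19 and Ccl21a were not analysed here.

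Of 16 transcription factors of dendritic cell development, 7 rose and 2 fell in Combo, and 2 rose and 1 fell in SHP2i. Over all genes 23.9% rose and 19.7% fell in Combo, and 5.05% rose and 6.54% fell in SHP2i. Spi1, the myeloid master regulator PU.1, fell by 1.51 in SHP2i and 2.35 in Combo. Nfil3 rose by 0.51, 0.50 and 0.48 in PI3Ki, SHP2i and Combo, and Bcl6 rose by 0.61 in Combo. Of 8 genes of MHC class II presentation, 6 fell in SHP2i and 7 in Combo. H2-Aa fell from 917 CPM in Vehicle to 297 in SHP2i and 173 in Combo, and Cd74, the invariant chain, from 2206 to 814 and 480.2 CPM. Macrophages also carry MHC class II, and macrophage and monocyte markers fell in 9 of 15 cases in SHP2i and 12 of 15 in Combo, with 1 rise in Combo. Their part in the fall of the members was not tested.

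**Figure D4:**
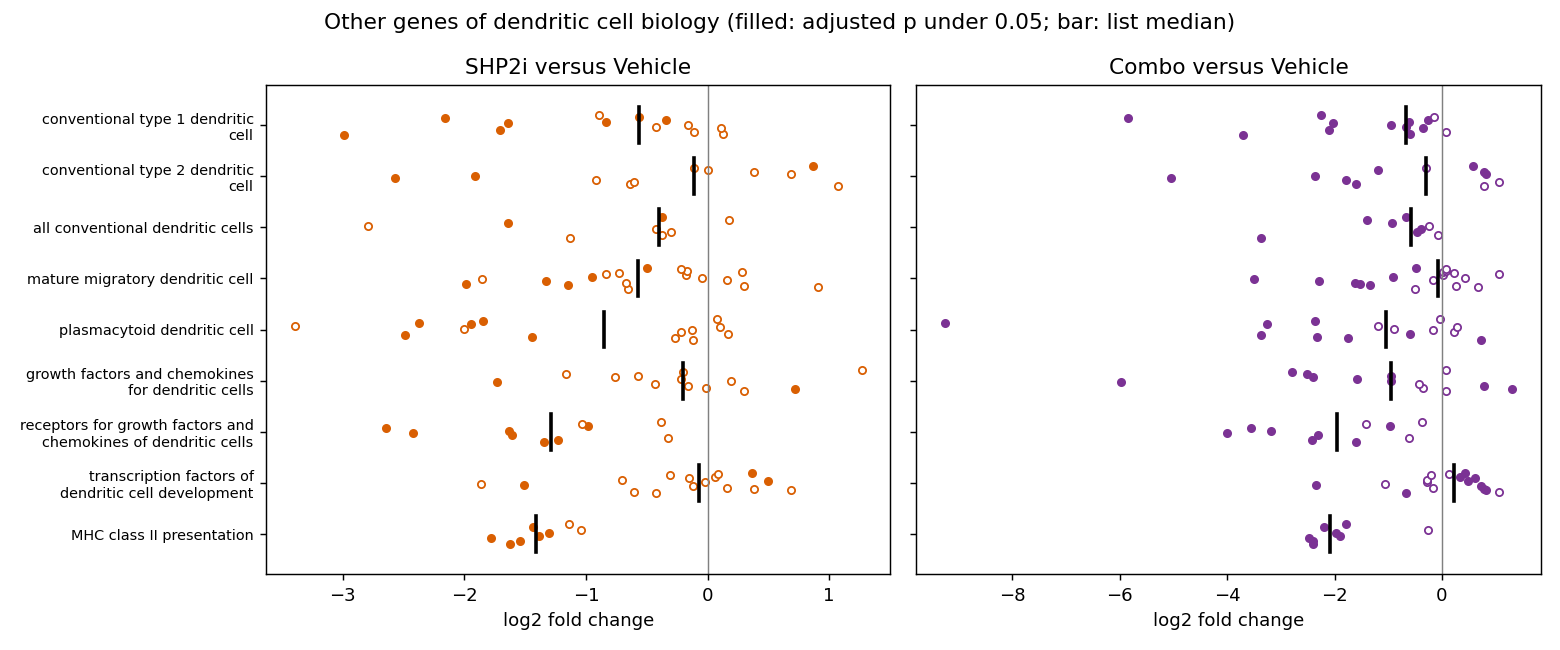
Log2 fold change against Vehicle of each tested gene of 9 lists of dendritic cell genes in SHP2i and Combo (the axes of the panels differ); filled points have an adjusted p under 0.05, and black bars are list medians. The bars of the receptors and MHC class II lists lie at -1.29 and -1.41 in SHP2i and at -1.96 and -2.08 in Combo; Klk1, at 0 reads in Combo, is drawn at its fitted value.

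The genes most like each member were found by Pearson's r over log2 CPM of the 18 tumors, which share treatment groups and cell content, so r is a description. For Irf8 it was Cd86 (0.984), for Flt3 it was Evl (0.968), for Siglech it was Gm5150 (0.965), and for Clec9a it was Sirpb1c (0.961), with Siglech at 0.921 the closest member. For Batf3 it was Msx1 (0.937), for Zbtb46 Klhdc7a (0.921), for Ccr7 Peli1 (0.918), for Fscn1 Sfxn1 (0.918), for Xcr1 Trpm2 (0.912) and for Cd209a Cbr3 (0.879). With group means subtracted, Xcr1 was the gene most like Clec9a (0.830). Zbtb46 and Irf8 ran in opposite directions over the tumors (-0.850). With group means subtracted, Ccr7 ran with the mean log2 CPM of the B cell (0.859), T cell (0.857) and lymph node markers (0.846), Flt3 with that of the T cell markers (0.950) and Irf8 with that of the leukocyte markers (0.862).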

How the data were processed

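RNA was extracted from 18 whole tumors, selected for poly(A) and made into directional libraries, which were sequenced in paired ends. The authors aligned the reads with STAR to GRCm38 and counted them with QuasR. The deposited values are raw counts per gene. Tool versions, annotation and the strand setting of the counting were not given in the sources used here, and a human build is also named in the submitters' processing notes. Gene IDs matched a symbol for 22760 of 22792 genes, and 32 without a symbol held 0.0193% of the counts.

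Counts were fitted with edgeR 4.0.16 (R 4.3.3) as deposited, with TMM scaling, filterByExpr (a minimum count of 10 and a total of 15) and the quasi-likelihood test over all 4 groups. P-values were adjusted by Benjamini-Hochberg over all 15282 genes tested, and a gene was called at an adjusted p under 0.05. The common biological coefficient of variation was 0.213. DESeq2 1.42.0 and limma 3.58.1 (voom) served as alternatives. CPM are TMM scaled, and log2 CPM used a prior count of 2. Libraries held 21161111 to 26620104 counted reads, and no pair of replicates agreed within sampling noise. The code was tested on simulated data. The members and lists were chosen with earlier results of these data known. Named list genes were taken from those with the 2 smallest p-values in SHP2i and in Combo against Vehicle and the highest mean. Jaml, Cbfa2t3, Cd24a, Samsn1, Marcksl1, Csf1 and H2-Eb1 also met this rule and are not described. The covariate on lymph node markers, and leaving out Combo replicates 3 and 4, were added after seeing the data. The ratios to leukocyte markers were also added then.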

Additional observations from a re-analysis of the deposited data

Results flagged for a closer look

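In 3 of 40 groups of member levels, 1 tumor stood farther from the others than Dixon's 95% limit allows, and chance flags about 1 in 20 groups. Xcr1 was at 4.06 CPM in Combo replicate 4, against 0.657 to 1.46 CPM in the other Combo tumors. Fscn1 was at 703 CPM in SHP2i replicate 3, against 544 to 556 CPM in the others. Siglech was at 0.639 CPM in PI3Ki replicate 1, against 3.02 to 3.36 CPM in the others. The effect of SHP2i on Siglech differed between tumors with and without PI3Ki by -3.79 on the log2 scale (edgeR interaction, adjusted p 0.0483), with 2 reads behind the Combo mean.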

How the results depend on the processing

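Over 70 member results and 33 alternatives, 2148 values kept their direction and side of the threshold, 74 lost and 39 gained a call, and 38 changed sign. Of the 29 called results, 1 changed sign, Siglech in SHP2i against PI3Ki with leukocyte markers (0.036). The cause of each change was not tested. What the replicate numbers stand for is not stated. Correlations of same-number deviations ran from -0.496 to 0.348, with 8 of 24 over 0.1. This spread cannot decide whether tumors with the same number share a batch. The replicate block changed no member's call against Vehicle (4 in SHP2i, 7 in Combo and 0 in PI3Ki) or for the interaction (1). In Combo against SHP2i 4 were called: the block ended the call on Irf8 (-0.73, adjusted p 0.0648) and added Xcr1 (1.18, 0.0247) and Ccr7 (0.91, 0.0484). In SHP2i against PI3Ki 7 were called, with Cd209a lost (-1.67, 0.0528) and Flt3 gained (-1.66, 0.0462), and in Combo against PI3Ki 8, with Xcr1 gained (-1.45, 0.00324). Counts of called members stood at 4 in SHP2i and 7 in Combo against Vehicle when any 1 tumor was left out, and at 0 in PI3Ki, 2 to 4 in Combo against SHP2i, 6 to 8 in Combo and in SHP2i against PI3Ki, and 0 to 1 for the interaction.

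How many of all genes were called was not counted for the other fits, the replicate block and the fits without 1 tumor included. Their counts of members therefore have no background beside them. Limma voom called 1 member in PI3Ki, 7 in SHP2i and 0 for the interaction, and DESeq2 called 2 for the interaction. The groups alone gave 9 in SHP2i against Vehicle and 1, Clec9a, in Combo against SHP2i. In the latter fit the Irf8 call was lost, and Siglech had too few reads to be tested. B cell, leukocyte and lymph node covariates gave 2, 1 and 1 in SHP2i. The leukocyte covariate gave 2 in Combo against Vehicle, 6 against SHP2i and 2 against PI3Ki, and 1 in SHP2i against PI3Ki, where lymph node markers gave 3. A log2 fold change over 1 left 4 in Combo and 4 in SHP2i against PI3Ki, beside 1696 and 1013 of all 15282 tested genes. No filter, or CPM over 1 in at least 4 tumors, gave 0 for the interaction.

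Signs changed as follows, in log2. Flt3 in PI3Ki against Vehicle became 0.061 under the replicate block, 0.38 with B cell, 0.060 with leukocyte and 0.25 with lymph node markers, and -0.18 to 0.18 with 1 tumor left out. With leukocyte markers Flt3 was 0.72 in SHP2i against Vehicle and 0.66 against PI3Ki, Xcr1 0.15 in Combo against PI3Ki, Fscn1 -0.028 in Combo against Vehicle, and Cd209a 0.35 in SHP2i against Vehicle and 0.86 in Combo against PI3Ki. Clec9a in PI3Ki became 0.080 under the block, 0.010 with lymph node markers and -0.21 to 0.092 with 1 tumor left out, and Batf3 -0.15 to 0.053. Ccr7 in PI3Ki was -0.058 with voom and -0.27 to 0.39 with 1 tumor left out. Ccr7 in SHP2i against Vehicle was 0.28, 0.23 and 0.46 with B cell, leukocyte and lymph node markers, and against PI3Ki 0.022 and 0.15 with leukocyte and lymph node markers. Without Combo replicates 3 and 4, Ccr7 in Combo was -0.34 against Vehicle and -0.50 against PI3Ki, Cd209a -0.27 against Vehicle and -0.054 in the interaction. With 1 tumor left out, Ccr7 in Combo was -0.020 to 0.52 against Vehicle and -0.20 to 0.62 against PI3Ki, and Cd209a -0.48 to 0.40 against Vehicle and -0.28 to 0.62 in the interaction. Cd209a was -0.0898 in Combo against Vehicle with voom and -0.0037 in the interaction with B cell markers. Siglech in Combo rests on 2 reads, which limits any fold change there.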
